A study of Mus musculus with 12 samples.

Results

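Private iHoxc6 domains are stretches of accessible chromatin that were listed after induction of Hoxc6 in mouse embryoid bodies and in none of the other lists of the study. These cells were differentiating into motor neurons and interneurons. They were chosen by a rule on the deposited ATAC-seq domain lists. A member is a domain of the iHoxc6 list, 150 bp or wider and on chromosomes 1 to 19, X or Y, that overlaps by 1 bp no domain of the EB, day 2, no Dox, iHoxc9 or iHoxc10 list. This gave 1173 members of 41107 iHoxc6 domains of that width, or 2.85%. The 6 lists together held 234412 domains 150 bp or wider on these chromosomes. All 6 groups were embryoid bodies grown from derivatives of the mouse embryonic stem cell line Ainv15. EBs (untreated) and day 2 progenitors (2 days of retinoic acid at 1 µM and the Hedgehog agonist SAG at 0.5 µM) came from the line labelled Ainv15(iCre). The other 4 groups had retinoic acid and SAG up to day 4. iHoxc6, iHoxc9 and iHoxc10 came from the lines Ainv15(iFlag.Hoxc6), Ainv15(iFlag.Hoxc9) and Ainv15(iFlag.Hoxc10), each with a single Flag-tagged Hox transgene placed by recombination under a doxycycline-responsive promoter, and received doxycycline (Dox, 3 µg/mL) for 48 h from day 2. The no Dox control came from the Hoxc6 line without Dox, and none of the day 4 lists came from the parental line. Each group had 2 samples and 1 list made from both.

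Hox genes encode homeodomain transcription factors that give cells their position along the body axis. In the ventral spinal cord they set the type of motor neuron made at each level, and Hoxc6 marks the brachial levels that supply the forelimb. Hoxc6 belongs to the central Hox group, which is known to favour a TAAT core, while Hoxc9 and Hoxc10 belong to the posterior group, which favours a TTAT core as in ATAAA. Hox factors often bind together with the TALE cofactors Meis, Pbx and Pknox. ATAC-seq finds open chromatin as places where the transposase Tn5 can insert, and an accessible domain is a stretch where such insertions pile up.

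The sequences below show what the widest members look like, since a width is all that a list gives for the size of a domain. They are the central 300 bp of the 6 widest members, from the RefSeq GRCm38.p6 genome (the build of the lists, mm10), plus strand, 5′ to 3′. Each is named by the protein-coding gene whose start is nearest. Capitals mark TAAT and ATAAA on either strand, so that ATTA and TTTAT also stand in capitals.
Ptchd4 chr17:42029265-42029564: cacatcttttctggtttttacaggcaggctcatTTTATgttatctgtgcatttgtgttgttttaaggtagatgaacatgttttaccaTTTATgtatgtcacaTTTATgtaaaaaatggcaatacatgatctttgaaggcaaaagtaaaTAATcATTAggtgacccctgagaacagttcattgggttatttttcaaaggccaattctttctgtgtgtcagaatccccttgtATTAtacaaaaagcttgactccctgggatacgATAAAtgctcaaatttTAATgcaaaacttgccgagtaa
2310079G19Rik chr16:88634951-88635250: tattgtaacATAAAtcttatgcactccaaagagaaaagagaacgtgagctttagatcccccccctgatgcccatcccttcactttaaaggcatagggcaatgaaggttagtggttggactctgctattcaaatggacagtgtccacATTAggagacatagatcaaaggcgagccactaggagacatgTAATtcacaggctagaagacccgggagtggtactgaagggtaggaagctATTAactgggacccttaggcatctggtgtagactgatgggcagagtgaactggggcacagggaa
Kcnj12 chr11:61042787-61043086: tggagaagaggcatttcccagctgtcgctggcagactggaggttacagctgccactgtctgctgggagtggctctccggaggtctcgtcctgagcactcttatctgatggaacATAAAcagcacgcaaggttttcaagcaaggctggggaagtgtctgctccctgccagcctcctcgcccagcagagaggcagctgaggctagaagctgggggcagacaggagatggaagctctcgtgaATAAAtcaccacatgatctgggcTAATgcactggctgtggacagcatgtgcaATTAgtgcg
Insig2 chr1:121264047-121264346: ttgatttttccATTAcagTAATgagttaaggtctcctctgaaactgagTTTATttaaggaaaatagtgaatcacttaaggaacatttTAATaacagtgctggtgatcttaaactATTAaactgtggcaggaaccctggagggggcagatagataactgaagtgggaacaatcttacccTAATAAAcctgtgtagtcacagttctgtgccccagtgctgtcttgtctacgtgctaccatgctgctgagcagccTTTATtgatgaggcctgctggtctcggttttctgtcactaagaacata
Ism1 chr2:139840908-139841207: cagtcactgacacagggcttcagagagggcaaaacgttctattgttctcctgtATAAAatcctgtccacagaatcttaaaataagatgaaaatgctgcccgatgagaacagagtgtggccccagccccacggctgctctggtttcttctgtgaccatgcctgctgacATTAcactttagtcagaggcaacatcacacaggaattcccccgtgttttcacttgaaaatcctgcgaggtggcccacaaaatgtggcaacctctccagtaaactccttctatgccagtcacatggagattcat
Eri3 chr4:117623774-117624073: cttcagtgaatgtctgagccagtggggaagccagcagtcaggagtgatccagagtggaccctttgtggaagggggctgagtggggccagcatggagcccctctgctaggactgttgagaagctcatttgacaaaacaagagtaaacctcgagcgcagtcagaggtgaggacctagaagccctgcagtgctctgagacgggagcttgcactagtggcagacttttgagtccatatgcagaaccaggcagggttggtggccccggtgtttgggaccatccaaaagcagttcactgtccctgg
The Ptchd4 stretch held 4 TAAT and 4 ATAAA, the Insig2 stretch 5 and 3, the 2310079G19Rik stretch 3 and 1, the Kcnj12 stretch 2 and 2, and the Ism1 stretch 1 of each. The Eri3 stretch held 0 of either. Wide members thus ranged from several Hox-type strings to none within their central 300 bp.

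The deposited lists give a start and an end for each domain but neither a signal nor a score of how open it was. With 1 list per group there is no spread between replicates, so every value below is a description of these lists, without a test across samples. Intervals are 95% intervals that cover counting only. The iHoxc6 list held 91181 domains and the others 56232 to 94875, and the read depth behind them is unknown. In the iHoxc6 list a domain lay within 1 kb of a start of 6 of 6 motor neuron genes (Mnx1, Isl1, Isl2, Lhx3, Slc18a3, Chat), 4 of 4 motor neuron progenitor genes and 2 of 5 pluripotency genes, where Pou5f1, Nanog and Zfp42 had none. In EBs the counts were 6, 4 and 5, so these motor neuron promoters do not tell the stages apart. The iHoxc6 list also had such a domain at 3 of 5 spinal interneuron genes, 3 of 4 mesoderm and endoderm genes and 1 of 2 neural crest genes. The no Dox list stood apart from the rest. It has more columns, its name carries another day and a threshold that the other names lack, and it holds no domain on the mitochondrial sequence, which the other 5 lists cover with 1 domain each. Sample series and possible calling settings cannot be told apart from treatment in a comparison with it. It shares its cell line with iHoxc6, while for the other groups the line differs from it as well.

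The share of private domains was 2.85% in iHoxc6, 5.14% in iHoxc9 (1598 of 31062) and 2.81% in iHoxc10 (950 of 33814). Members were narrow. Their median width was 215 bp, with an interquartile range of 180 to 252 bp, against 397 bp for the other 39934 iHoxc6 domains, 237 bp for private iHoxc9 domains and 218 bp for private iHoxc10 domains. Of the members, 25.8% (23.4 to 28.4) were 250 bp or wider, against 43.3% (40.9 to 45.8) of private iHoxc9 and 27.7% (24.9 to 30.6) of private iHoxc10 domains, and 33 members reached 400 bp, or 2.81% (2.01 to 3.93). Just inside the width limit, 97 members were less than 10 bp wider than the limit, and just outside it 193 private domains were up to 10 bp narrower. In all, 23543 private iHoxc6 domains were under 150 bp and were not members. In the deposited order of the list, whose basis is not given in the sources used here, members stood late: of 4 equal parts of the iHoxc6 domains 150 bp or wider, the first held 0 members, the second 3, the third 117 and the last 1053. That order followed width over the whole list, with a Spearman correlation of -0.92 over 91181 domains.

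Some members lay beside a domain of another list. The nearest domain of any of the other 5 lists was within 1 kb of 484 members, or 41.3% (38.5 to 44.1), and more than 10 kb away from 202, or 17.2%. The median distance was 1.96 kb. By list, the share with a domain within 1 kb was 26.2% (23.7 to 28.8) for no Dox, 22.9% (20.5 to 25.3) for day 2, 17.2% (15.2 to 19.5) for EBs, 16.5% (14.5 to 18.8) for iHoxc9 and 15.4% (13.5 to 17.6) for iHoxc10. Close neighbours were thus listed most often without Dox and at day 2, although the iHoxc9 and iHoxc10 lists are also shorter. At the edge of the rule, 24 members lay within 10 bp of a domain of another list. Among the iHoxc6 domains left out, 57 overlapped the last such domain along the chromosome by 1 to 10 bp. Overlap with an earlier domain was not measured, so fewer may have been left out for so small an overlap alone. Of the 5 lists compared against, the no Dox list moved the count most: when it was not used, 2189 iHoxc6 domains overlapped none of the other 4 lists, against 1648 without the day 2 list, 1454 without the iHoxc9 list, 1426 without the iHoxc10 list and 1323 without the EB list. The width limit moved it further, to 303 at 250 bp. Without the no Dox list, the iHoxc9 list no longer held more private domains than the iHoxc6 list. The ratio of the 2 counts was 1.36 (1.26 to 1.47) with the no Dox list and 0.834 (0.783 to 0.888) without it. At the width limit of 250 bp that ratio was 2.28.

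**Figure D1:**
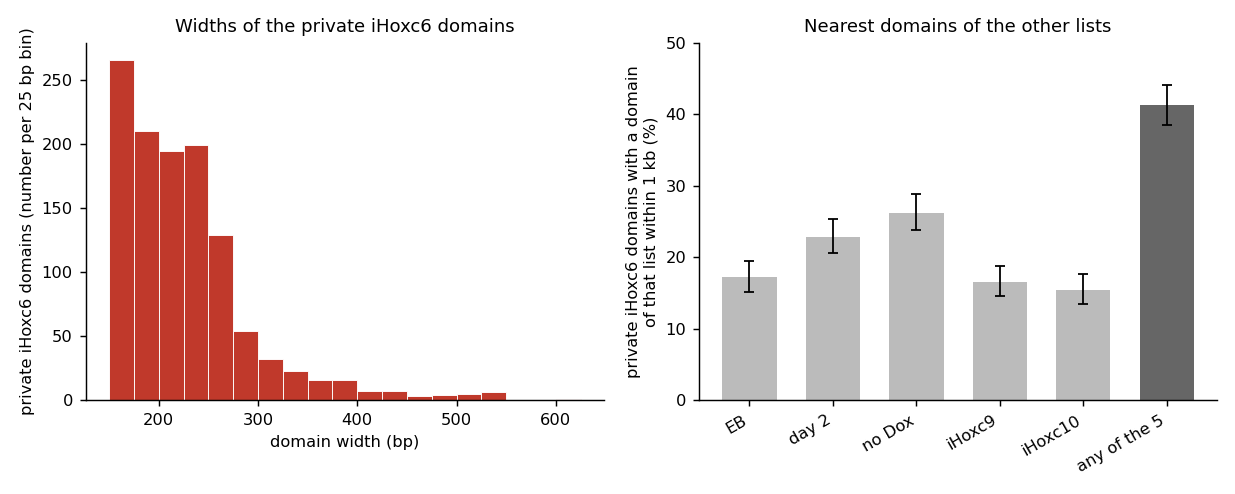
Left, number of private iHoxc6 domains (n = 1173) by width in bp, in bins of 25 bp from the limit of 150 bp. Right, percent of these domains with a domain of each other list within 1 kb, with 95% Wilson intervals for counting. Most widths fall below 250 bp, and no Dox and day 2 domains are the most frequent neighbours.

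Members lay mostly in introns and between genes. Introns held 44.9% (42.1 to 47.8) and intergenic sequence 42.4% (39.6 to 45.2), while 6.74% (5.44 to 8.32) overlapped an exon and 5.97% (4.75 to 7.47) a promoter, meaning 1 kb to either side of a start of a protein-coding gene. Promoters took 34.5% of all iHoxc6 domains 150 bp or wider. The rule takes out each domain that another list also holds, so the low promoter share is not independent of how the members were chosen. Set beside sets chosen in the same way, the promoter share of the members was near that of private iHoxc10 domains, 4.42% (3.29 to 5.92), and above that of private iHoxc9 domains, 1.19% (0.763 to 1.85). Most of the members at promoters lay beside a domain of another list, since the share was 1.02% (0.493 to 2.08) among the 689 members with no such domain within 1 kb. The median distance to the nearest start was 52.3 kb, against 111 kb for private iHoxc9 and 47.5 kb for private iHoxc10 domains, and 35.3% (32.6 to 38.1) of members were over 100 kb from any start, against 52.6% (50.1 to 55.0) of private iHoxc9 and 32.1% (29.2 to 35.1) of private iHoxc10 domains. The members at promoters were mostly to the side of the start. Of 70 such members, 6 covered the start itself, or 8.57% (3.99 to 17.5), against 85.6% (85.0 to 86.2) of the other iHoxc6 promoter domains, and they held a median of 2.02 CG dinucleotides per 100 bp against 7.5. Their median width was 216 bp against 760 bp. Private iHoxc10 domains at promoters, with a median width of 218 bp, had 3 of 42 on the start, or 7.14% (2.46 to 19.01), and a median of 2.34 CG per 100 bp.

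**Figure D2:**
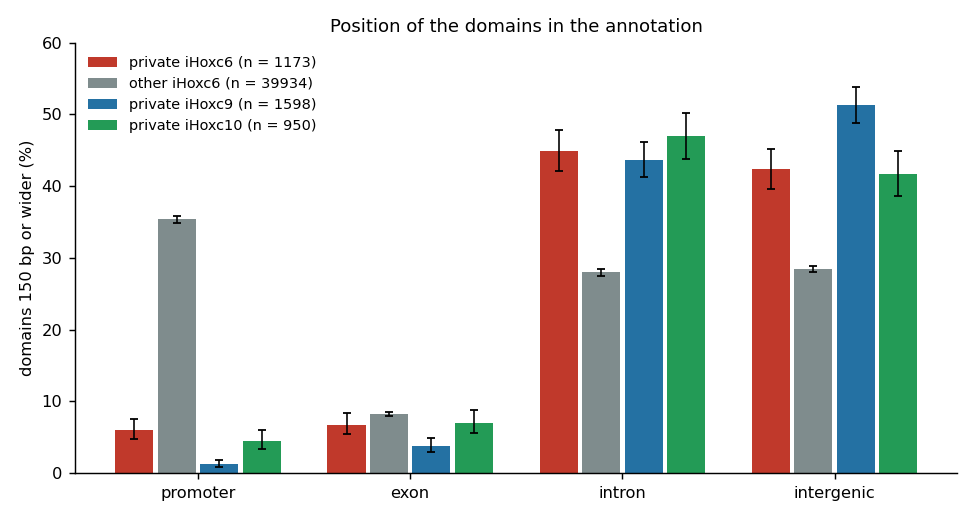
Percent of domains 150 bp or wider in promoters, exons, introns and intergenic sequence, for private iHoxc6 domains (red), the other iHoxc6 domains (grey), private iHoxc9 domains (blue) and private iHoxc10 domains (green). Bars start at 0 and lines are 95% Wilson intervals for counting, and private iHoxc6 domains are at promoters in 5.97% against 35.4% of the other iHoxc6 domains.

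The members were spread over the chromosomes. From 1.54% (chromosome X, 14 of 908) to 3.73% (chromosome 16, 51 of 1369) of the iHoxc6 domains on a chromosome were private. On chromosome Y it was 0 of 41, where 3 counts, taken as the upper limit when 0 are seen, would be a share of 7.32%. Another member lay within 50 kb of 7.93% (6.52 to 9.62) of them. Median GC content was 46.6% for members, 53.8% for the other iHoxc6 domains, 41.9% for private iHoxc9 and 47.1% for private iHoxc10 domains. Most members had no further copy by a search of the genome. A further match over 80% of the domain at 90% identity or more was found for 32 members, or 2.73% (1.94 to 3.83), against 2.08% of all iHoxc6 domains 150 bp or wider, and 62 members, or 5.29% (4.15 to 6.72), were masked as repeats over 50% of their length or more, against 1.47% (1.35 to 1.59) of the other iHoxc6 domains. The masked share was 4.32% (3.197 to 5.80) in private iHoxc10 domains, whose interval overlapped that of the members, and 1.44% (0.961 to 2.15) in private iHoxc9 domains. No masked base was found in 47.2% (44.4 to 50.1) of the members.

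Hox-type strings were searched on both strands in the central 200 bp of each domain and in windows of the same length 5 kb to either side. TAAT, the short string of central Hox factors, occurred 9.59 times per kb at the centre of members and 8.84 times per kb in the windows, a ratio of 1.09 (1.03 to 1.14). The ratio was 1.202 (1.16 to 1.25) in private iHoxc9 and 1.19 (1.12 to 1.26) in private iHoxc10 domains, and 0.654 (0.647 to 0.662) in the other iHoxc6 domains. At least 1 TAAT was held by 73.3% (70.7 to 75.8) of members, against 70.2% of the windows and 48.4% of all iHoxc6 domains 150 bp or wider. The share was 72.8% (69.9 to 75.6) in private iHoxc10 and 85.5% (83.7 to 87.1) in private iHoxc9 domains. These strings are rich in A and T, and the centres of members were richer in GC than the windows, with a median of 46.0% against 43.0%. With windows weighted to equal GC content, the TAAT ratio was 1.51 in members, 1.37 in the other iHoxc6 domains, 1.39 in private iHoxc9 and 1.45 in private iHoxc10 domains. TAATTA, a palindrome in which TAAT lies on both strands, gave 1.29 (1.02 to 1.64) in members and 1.22 (1.01 to 1.48) in private iHoxc9 domains.

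ATAAA, the short string of posterior Hox factors, was less frequent at the centre of members than beside them. It occurred 2.81 times per kb at the centre and 4.27 times per kb in the windows, a ratio of 0.658 (0.602 to 0.719). Private iHoxc9 domains had a ratio of 1.76 (1.68 to 1.85) and private iHoxc10 domains of 1.03 (0.943 to 1.12), so the intervals of the 3 private sets did not overlap. The other iHoxc6 domains had a lower ratio than the members, 0.492 (0.483 to 0.501). Against the centres of the other iHoxc6 domains, which are richer in GC, ATAAA was more frequent in members, with a ratio of 1.43 (1.32 to 1.54). With windows of equal GC content the ratios were 0.948, 2.03 and 1.30, in the same order, which leaves the order of the private sets as it was and puts the members near 1, and the ratio of the other iHoxc6 domains was 1.10. ATAAA stood in the central 200 bp of 40.2% (37.4 to 43.0) of members, of 84.5% (82.6 to 86.2) of private iHoxc9 domains and of 28.5% of all iHoxc6 domains 150 bp or wider. The longer TTTATG, which holds the same core read from the other strand, gave 0.775 (0.635 to 0.941) in members, 3.65 (3.30 to 4.04) in private iHoxc9 and 1.45 (1.21 to 1.74) in private iHoxc10 domains, with 0.610 (0.587 to 0.633) in the other iHoxc6 domains. At equal GC content its ratio in members turned to 1.04, and it was 3.99 in private iHoxc9, 1.73 in private iHoxc10 and 1.204 in the other iHoxc6 domains. The low unweighted ratios of both posterior strings were thus shared with the rest of the iHoxc6 list and moved to near 1 in members at equal GC content.

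Over whole domains, 38.8% (36.0 to 41.6) of members held TAAT without ATAAA and 35.2% (32.5 to 37.99) held both. In private iHoxc9 domains these shares were 9.89% (8.52 to 11.5) and 78.6% (76.5 to 80.5). Neither string was found in 19.01% (16.9 to 21.4) of members and in 3.07% (2.33 to 4.03) of private iHoxc9 domains. Members were thus more often TAAT alone or free of both than private iHoxc9 domains, whose median width was 237 bp against 215 bp. The other sets were closer to the members: TAAT without ATAAA was held by 29.3% (26.5 to 32.2) of private iHoxc10 and 30.1% (29.6 to 30.5) of the other iHoxc6 domains, and neither string by 16.3% (14.1 to 18.8) and 23.2% (22.7 to 23.6).

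Strings of Hox complexes with Pbx were rare both in members and in the other iHoxc6 domains. TGATTTAT, a Hox-Pbx string that contains the posterior core, was found 19 times and stood in 1.54% (0.973 to 2.41) of members and 1.497% (1.38 to 1.62) of the other iHoxc6 domains, with a ratio of 1.73 (0.883 to 3.34) in members, against 136 times and 5.79 (4.12 to 8.24) in private iHoxc9 domains. TGATTAAT, which contains TAAT, was found 11 times and stood in 0.767% of members and 0.744% of the other iHoxc6 domains, with a ratio of 1.10 (0.476 to 2.41) in members. TGATTGAT was found 6 times, in 0.512% (0.235 to 1.11) of members against 0.796% (0.714 to 0.888), with a ratio of 0.387 (0.132 to 0.941) in members. TGACAG, the site of the cofactors Meis and Pknox, was more frequent at the centre of members, with a ratio of 1.44 (1.23 to 1.70), and stood in 20.03% (17.8 to 22.4) of them against 15.1% of all iHoxc6 domains 150 bp or wider. Its ratio was 1.57 (1.36 to 1.82) in private iHoxc9 and 1.11 (0.921 to 1.34) in private iHoxc10 domains. TGACAG stood in 19.02% (17.17 to 21.02) of private iHoxc9 and 16.84% (14.6 to 19.35) of private iHoxc10 domains.

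The E-boxes, bound by bHLH factors of neurogenesis such as Neurog2, had higher unweighted ratios in members than the TAAT string had. At equal GC content the ratios in members lay closer, 1.935 for CAGCTG and 1.75 for CAGATG against 1.51 for TAAT. The E-box CAGCTG gave 2.35 (1.94 to 2.85) in members, 2.14 (2.07 to 2.204) in the other iHoxc6 domains, 2.52 (2.10 to 3.02) in private iHoxc9 and 1.60 (1.27 to 2.00) in private iHoxc10 domains, and it stood in 17.99% (15.9 to 20.3) of members against 17.6% of all iHoxc6 domains 150 bp or wider. The intervals of members and of the other iHoxc6 domains overlapped. At equal GC content CAGCTG gave 1.454 in the other iHoxc6, 2.401 in private iHoxc9 and 1.405 in private iHoxc10 domains. CAGATG then gave 1.216, 1.566 and 1.097 in the same order. CAGATG gave 1.88 (1.62 to 2.19) in members, 1.10 (1.07 to 1.13) in the other iHoxc6 domains, 1.60 (1.41 to 1.83) in private iHoxc9 and 1.11 (0.918 to 1.34) in private iHoxc10 domains, and it stood in 24.4% (22.0 to 26.9) of members against 16.4% of all iHoxc6 domains 150 bp or wider. It stood in 22.34% (20.37 to 24.45) of private iHoxc9 and 17.05% (14.79 to 19.58) of private iHoxc10 domains. Over whole domains, 41.0% (38.2 to 43.9) of members held either E-box, against 32.4% (29.5 to 35.5) of private iHoxc10 domains of nearly the same median width, 42.2% (39.8 to 44.6) of private iHoxc9 and 52.6% (52.1 to 53.1) of the other, wider iHoxc6 domains.

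**Figure D3:**
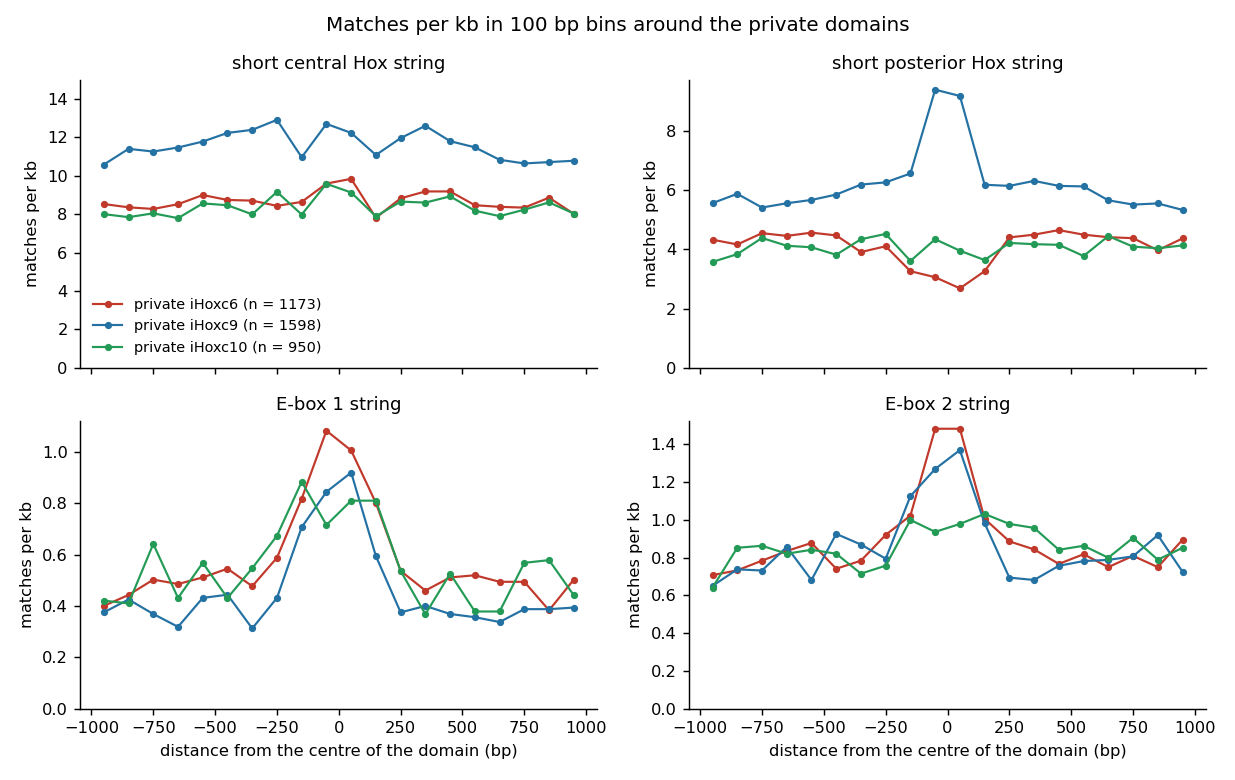
Matches per kb in bins of 100 bp within 1000 bp of the centre of private iHoxc6 (red), iHoxc9 (blue) and iHoxc10 (green) domains, for TAAT (short central Hox), ATAAA (short posterior Hox), CAGCTG (E-box 1) and CAGATG (E-box 2). ATAAA dips at the centre of private iHoxc6 domains and peaks in private iHoxc9 domains. Both E-boxes peak at the centre of private iHoxc6 and of private iHoxc9 domains, and less so in private iHoxc10 domains. The matches are not weighted for GC content, and at equal GC content the ATAAA ratio of private iHoxc6 domains was 0.948.

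**Figure D4:**
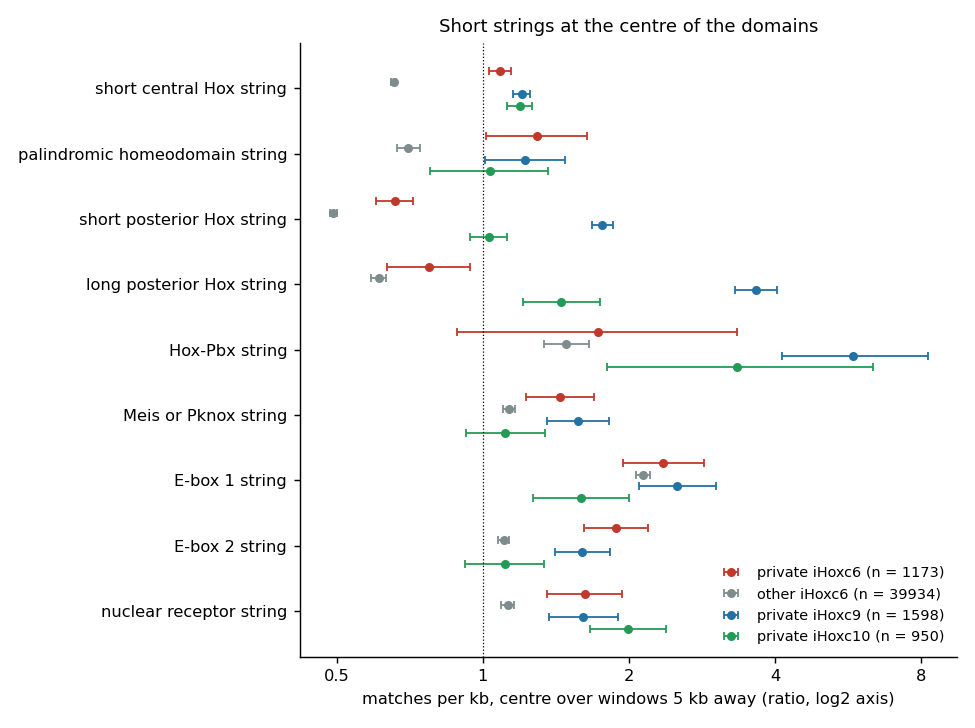
Ratio of matches per kb in the central 200 bp to windows 5 kb away, on a log2 axis, with 95% exact intervals for counting, in private iHoxc6 (red), other iHoxc6 (grey), private iHoxc9 (blue) and private iHoxc10 (green) domains. The rows follow the strings in the text, from the short central Hox string TAAT to the nuclear receptor string AGGTCA, and for both posterior Hox strings both iHoxc6 sets lie below 1, the other domains (0.492 and 0.610) lower than the private ones (0.658 and 0.775), where private iHoxc9 domains lie above 1. The ratios plotted are not weighted for GC content.

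Among the other strings, AGGTCA, the recognition site of nuclear receptors such as those for retinoic acid, gave 1.62 (1.35 to 1.94) in members, 1.61 (1.37 to 1.90) in private iHoxc9 and 1.99 (1.66 to 2.39) in private iHoxc10 domains. TGANTCA, the site of AP-1 factors, gave 1.44 (1.10 to 1.88) in members, 1.27 (0.939 to 1.71) in private iHoxc10 and 0.833 (0.791 to 0.878) in the other iHoxc6 domains. The intervals of members and of private iHoxc10 domains overlapped, and at equal GC content the ratio was 1.43 in members and turned to 1.15 in the other iHoxc6 domains. The Sox string AACAAAG, the octamer ATGCAAAT and the TEAD string GGAATG gave 0.946 (0.716 to 1.24), 1.12 (0.594 to 2.06) and 1.198 (0.987 to 1.45), and all 3 intervals include 1. The low-complexity strings CACACACA and AAAAAAAA were rarer at the centre, with ratios of 0.190 (0.156 to 0.230) and 0.263 (0.214 to 0.319). The other sets shared this. CACACACA gave 0.1245 in the other iHoxc6, 0.1022 in private iHoxc9 and 0.1448 in private iHoxc10 domains. AAAAAAAA gave 0.3516, 0.3704 and 0.5805 in the same order.

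Of 1840 strings of 6 bases, with a string and its reverse complement taken as 1, 221 had a ratio of 1.5 or more in members, against 378, or 20.5%, in the other iHoxc6 domains. The highest 10 in members contained CG without exception, led by AGCCGG at 2.83 (1.93 to 4.19), and their ratios in the other iHoxc6 domains lay between 2.41 and 7.90. With windows of equal GC content the picture was another. Of the highest 10, 6 then contained TAAT on 1 strand and 3 contained CG. The highest were CCATTA with a ratio of 2.47, CATTAG with 2.38 and ATTAAC with 2.36, against 1.77, 1.84 and 1.82 in the other iHoxc6 domains. In private iHoxc9 domains CCATTA reached 2.56, CATTAG 1.54 and ATTAAC 1.62, and in private iHoxc10 domains they reached 1.77, 2.01 and 1.74. These strings were picked for their high ratio in members, so lower ratios in the other sets follow in part from that choice. The lowest string was ACACAC in both orders, with 0.317 (0.279 to 0.359) unweighted and 0.309 with equal GC content. Its unweighted ratio was as low elsewhere, 0.2374 in the other iHoxc6, 0.2968 in private iHoxc9 and 0.2958 in private iHoxc10 domains.

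The members were not uniform in these strings. The ratios of this paragraph are not weighted for GC content, which differed between some classes. Median GC was 48.85% within 1 kb of another list, 46.06% at 1 to 10 kb and 43.82% over 10 kb. It was 52.21% at promoters, 49.67% in exons, 47.09% in introns and 45.29% between genes. Between the classes of width and of deposited order it differed little, from 46.44% to 46.84%. Whether the differences between classes remain at equal GC content was not tested. The 487 members 1 to 10 kb from the nearest domain of another list had a TAAT ratio of 1.23 (1.14 to 1.33) and a CAGCTG ratio of 3.10 (2.28 to 4.24), against 0.903 (0.825 to 0.987) and 1.90 (1.41 to 2.54) in the 484 members within 1 kb. The latter were at promoters in 13.02%, the former in 1.23%. The 202 members over 10 kb away had a TAAT ratio of 1.13 (1.01 to 1.27) and a CAGATG ratio of 2.39 (1.68 to 3.40). By location, TAAT gave 0.687 (0.526 to 0.889) in the 70 members at promoters, 0.774 (0.599 to 0.993) in exons, 1.14 (1.06 to 1.23) in introns and 1.12 (1.04 to 1.21) between genes. Members earlier in the deposited order had higher ratios: TAAT gave 1.21 (1.13 to 1.30) in the first 586 and 0.957 (0.886 to 1.03) in the last 587, and CAGCTG gave 2.94 (2.26 to 3.82) and 1.78 (1.33 to 2.39). The ATAAA ratio stayed below 1 in each of these classes, between 0.540 and 0.687. By width it was 0.571 (0.490 to 0.663) in the 476 members under 200 bp and 0.761 (0.517 to 1.10) in the 65 of 350 bp or more, where the interval includes 1. In these 2 width classes TAAT gave 1.07 (0.981 to 1.16) and 1.33 (1.07 to 1.64). CAGCTG went the other way, with 2.73 (2.04 to 3.68) and 1.62 (0.595 to 4.31), and the intervals overlapped.

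The Hoxc6 gene, the factor that was induced, carried a member in its own coding sequence. The member at chr15:103010834-103011075 is 242 bp wide and covers the last 205 bp of the coding sequence in the final exon of Hoxc6, followed by 37 bp of its 3′ UTR. The coding stretch of that exon runs from chr15:103010734-103011038. The 205 coding bases, which include the end of the homeobox (plus strand, GRCm38.p6, capitals as above), are shown because an induced Hoxc6 transgene also carries Hoxc6 coding sequence.
Hoxc6 chr15:103010834-103011038: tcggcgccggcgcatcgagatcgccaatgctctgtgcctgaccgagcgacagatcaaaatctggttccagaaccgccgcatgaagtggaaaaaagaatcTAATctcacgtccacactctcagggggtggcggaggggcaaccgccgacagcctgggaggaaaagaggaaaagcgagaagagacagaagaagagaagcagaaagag
The iHoxc6 list held a domain on each coding stretch of the gene. It covered 339 of 400 bp (84.8%) of the first and 205 of 305 bp (67.2%) of the second, while EB, day 2, no Dox and iHoxc10 covered 0 bp of both and iHoxc9 covered 76 bp of the first and 0 bp of the second. The domain on the first stretch is no member because of that iHoxc9 domain. The other induced genes differed from this. The iHoxc10 list covered 468 of 751 bp of the first coding stretch of Hoxc10, where the other 5 lists covered 0 bp, but 0 of 275 bp of the second. The iHoxc9 list covered 468 of 538 bp of the first stretch of Hoxc9 and 0 of 242 bp of the second. That first stretch was also covered over 489 bp at day 2, 233 bp in EBs, 140 bp without Dox and 45 bp in iHoxc6. The lists cannot tell apart reads of the native gene from reads of the transgene copy. Of 41107 iHoxc6 domains, 90, or 0.219%, had their nearest start at a Hox gene, and the domain at Hoxc6 was the 1 member among them.

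**Figure D5:**
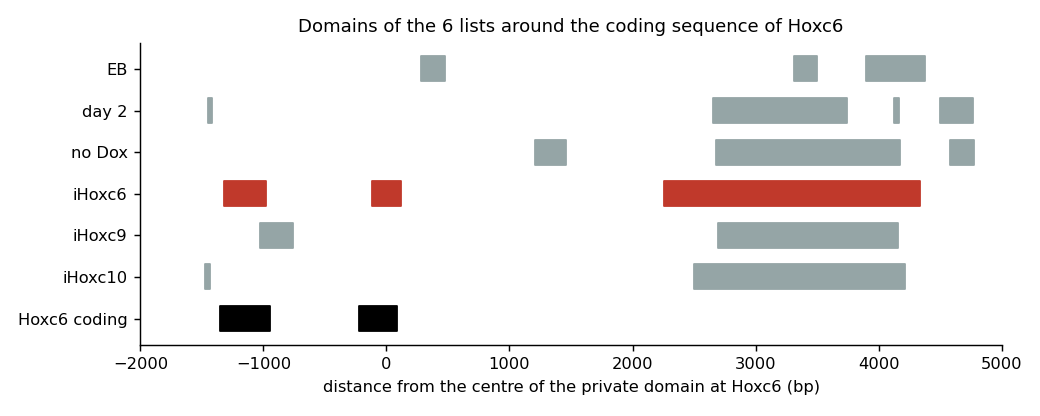
Domains of the 6 lists (rows) by distance in bp from the centre of the private iHoxc6 domain at Hoxc6, with the coding stretches of Hoxc6 in black at the bottom. The iHoxc6 list (red) has a domain on each coding stretch, and in the other lists only an iHoxc9 domain reaches into the first stretch.

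The 1173 members had their nearest start at 1024 protein-coding genes, 902 of which had 1 member, 101 had 2, 17 had 3 and 4 had more. The genes with 5 members were Meis2 and Prl2c3. Meis2 encodes a TALE homeodomain cofactor of Hox proteins, and 5 of its 24 iHoxc6 domains were members. The widest, at chr2:115865083-115865595, overlapped an exon of Meis2 198.9 kb downstream of the nearest start and held 6 TAAT and 4 ATAAA. A pair of members of 181 and 315 bp lay in introns of Meis2, 161.4 and 158.2 kb downstream, and a pair of 267 and 172 bp lay 224.3 and 278.5 kb upstream. Each of the 5 held at least 3 TAAT, and none had a further copy in the genome.

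Prl2c3 belongs to the prolactin-related genes of the placenta, which lie in a cluster of near-identical copies. All 5 of its members, of 15 iHoxc6 domains there, had 2 or 3 further copies in the genome, and they lay 0.033 to 0.400 kb from a domain of another list. Reads from near-identical copies may not be placed uniquely, which was not measured, so these members are uncertain. Sdk2, which encodes an adhesion protein of synapses, had 4 members of 174 to 290 bp, all of them intergenic and 53.1 to 212.1 kb upstream. Galntl6, which encodes a member of the family of glycosyltransferases that start O-linked sugar chains, had 4, a pair in its introns and a pair 232.1 and 232.7 kb upstream.

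The genes with 3 members that ranked next by the distance between neighbouring starts were Chil4, Rnf180, Camk2d, Lrguk, Plcb1 and Smim15. At Chil4, a chitinase-like gene, 3 of 4 iHoxc6 domains were members, and 1 of them had 18 further copies. At Rnf180, which encodes a ubiquitin ligase, 1 of 3 members lay 0.717 kb from a start, and at Camk2d, a calcium-dependent kinase gene, 1 of 3 lay 0.612 kb from a start. At Plcb1, which encodes a phospholipase C, the member at chr2:135195128-135195472 was 345 bp wide and held 7 TAAT. The members assigned to Lrguk lay in introns of Exoc4, and those assigned to Smim15 lay in introns of Zswim6 and Ndufaf2, so the nearest start was not that of the gene they lay in.

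Members at 11 lists of genes, of motor neurons and of other cell types, were counted by nearest start, each beside the same share of all iHoxc6 domains 150 bp or wider. Hox cofactors had 7 members, or 0.597% (0.289 to 1.23), against 0.251% of all: 5 at Meis2 and 1 each at Meis1 and Pknox2. Motor neuron identity genes had 3 members (0.256%, 0.0870 to 0.749) against 0.343%. They were a pair in introns of Ebf1, a gene of early postmitotic neurons, and 1 of 222 bp located 31.4 kb from Isl1, the LIM factor of motor neurons, with 4 TAAT.

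Genes of motor columns and pools had 8 members (0.682%, 0.346 to 1.34) against 0.387%. They lay at 7 of the 20 genes of this list, and the rest had none. Runx1, a factor of cervical motor pools, had 2. The others, among them Epha4, Lhx1 and Nos1, were tied at 1 each, so no single column or pool stood out. Axon guidance genes had 11 (0.938%, 0.524 to 1.67) against 0.917%, with 2 each at Slit2 and Efna5, which encode repellents of growing axons. Type II cadherins and protocadherins had 8 (0.682%, 0.346 to 1.34) against 0.545%, with 2 each at Pcdh7 and Pcdh17. The member whose nearest start was that of Cdh8, a cadherin of neurons, was intergenic and 1329 kb downstream of it, held 10 TAAT in 268 bp and lay 61.5 kb from any domain of another list.

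Synaptic adhesion genes had 20 members (1.71%, 1.11 to 2.62) against 1.01%. Of these, 3 each lay at Nrxn3 and Flrt2, and 2 at Dscam. Nrxn3 encodes a presynaptic neurexin, Flrt2 a partner of latrophilins and Dscam a receptor of the immunoglobulin family. The members at Nrxn3 were intronic, 157, 264 and 196 bp wide, and held 6, 5 and 7 TAAT. For Hox cofactors and synaptic adhesion the lower end of the interval lay above the share of all domains. Of the 7 Hox cofactor members 5 were at Meis2. The members were also less often at promoters than all iHoxc6 domains, 5.97% against 34.5%, so the 2 sets are not alike in position. These lists were chosen with results of these data in view, and nothing further is drawn from their counts.

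Neural progenitor and patterning genes had 6 members (0.512%, 0.235 to 1.11) against 0.632%. Among them was a promoter member of 240 bp on the start of Cyp26b1, the enzyme that degrades retinoic acid, 0.033 kb from a no Dox domain. Mesoderm, endoderm and crest genes had 2 (0.171%, 0.0468 to 0.620) against 0.148%, of which 1 covered the start of Foxd3, a factor of the neural crest, 0.038 kb from a day 2 domain. Spinal interneuron genes had 2 (0.171%, 0.0468 to 0.620) against 0.153%, at En1 and Lhx5. Pluripotency genes had 0 members against 0.056%, and the interval for 0 of 1173 members reaches 0.326%. By symbol, zinc finger genes starting with Zfp had 16 members (1.36%, 0.841 to 2.204) against 2.22%, olfactory receptor genes (Olfr) 3 (0.256%, 0.0870 to 0.749) against 0.238%, and vomeronasal receptor genes (Vmn) 2 (0.171%, 0.0468 to 0.620) against 0.156%.

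The 10 widest members were 514 to 606 bp wide. Each of them held TAAT and ATAAA at least 1 time, 7 held CAGCTG and 6 CAGATG, and none had a further copy in the genome. Wide stretches hold short strings often. The windows 5 kb from members held TAAT 8.84, ATAAA 4.27, CAGATG 0.766 and CAGCTG 0.431 times per kb. No share was computed for other stretches of this width, so nothing is drawn from these counts. The widest, at chr17:42029112-42029717, was intergenic, 286.2 kb upstream of Ptchd4, a gene with a patched domain, and held 11 TAAT and 8 ATAAA over a GC content of 37.3%. The second, at chr16:88634827-88635374, was 548 bp wide. It was followed by a member in an intron of Kcnj12, a potassium channel gene, at chr11:61042667-61043207, which lay 0.629 kb from a no Dox domain. A member 58.7 kb downstream of Insig2, a regulator of sterol synthesis, and members in introns of Tasp1 and Eri3 were 536, 535 and 532 bp wide. Further members lay 5.29 kb upstream of Sdcbp (531 bp wide), 326.8 kb upstream of Clint1 (522 bp wide) and in an intron of Dscam (518 bp wide). The last was intergenic, 454.4 kb downstream of Zfp608, and lay 0.037 kb from a no Dox domain.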

How the data were processed

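ATAC-seq was deposited as 1 list of accessible domains per group, made by the authors from both replicates. Per the methods of the study and the submitters' processing notes, the authors mapped paired-end reads to mm10 with Bowtie2 2.2.2, used Picard 2.8.2, and called domains with DomainFinder, whose settings are not given in the sources used here. The deposited values are positions in bp.

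Coordinates were taken to follow BED and are printed counting from 1, which may be off by 1 bp since the sources do not say how starts were counted. Genes and starts came from GENCODE M21, and sequence from RefSeq GRCm38.p6, whose chromosome lengths hold every domain. Further copies were sought with minimap2 2.31-r1302 (90% identity, 80% of the domain). Python 3.11.15, NumPy 2.4.6, SciPy 1.17.1, pysam 0.24.0, samtools 1.23.1 and matplotlib 3.10.9 were used, and the code was tested on simulated data (6 checks, 0 differed).

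No test across samples was possible. Shares carry 95% Wilson intervals and ratios 95% exact conditional Poisson intervals, for counting only. Matches may overlap each other and are not independent. Named genes were the 10 with the most members and up to 4 per gene list, and named sites the 10 widest members, those on promoters of listed genes and the member in Hoxc6. Some listed genes are not reported here by name. Members, lists and rules were chosen with earlier results of these data known.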

Additional observations from a re-analysis of the deposited data

Results flagged for a closer look

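The ATAAA ratio of private domains went opposite ways under the induced factors, 0.658 in iHoxc6 and 1.76 in iHoxc9. At equal GC content the ratios were 0.948 and 2.03, which puts iHoxc6 near 1, and against the centres of the other iHoxc6 domains the iHoxc6 ratio turned to 1.43. The other iHoxc6 domains had an unweighted ratio of 0.492. This difference was not tested, since each group has 1 list. Of the data outside the comparisons, 1 domain of the iHoxc6 list covered 16274 bp of the mitochondrial sequence, where the no Dox list holds none and the other 4 lists hold the same length.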

How the results depend on the processing

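No paired analysis was possible because each list was made from both replicates of a group. Of 74 alternatives, 28 stayed within the 95% interval of the value reported, or within 1.5 times for the count, and 6 were added after seeing the data (without the no Dox list). The count of private iHoxc6 domains and their share of the list were 2007 and 3.99% at a minimum width of 100 bp, 697 and 2.01% at 200 bp, and 303 and 1.01% at 250 bp. They were 689 and 1.68% with the other lists widened by 1000 bp, 1782 and 4.34% with each list cut to its widest domains, and 2189 and 5.33% without the no Dox list. The share was 2.25% with lists widened by 200 bp and 3.22%, 4.01%, 3.54% and 3.47% without the EB, day 2, iHoxc9 and iHoxc10 lists. The ratio of iHoxc9 to iHoxc6 private counts was 1.15, 1.58 and 2.28 at 100, 200 and 250 bp, 1.59 and 1.82 with lists widened by 200 and 1000 bp, 1.14 with equal list lengths, and 1.25 and 1.03 without the EB and day 2 lists. It turned to 0.834 without the no Dox list. The cause was not tested.

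The promoter share was 2.39% within 0.5 kb of a start, 15.8% within 5 kb, 8.27% with starts of all biotypes and 1.02% with lists widened by 1000 bp. The intergenic share was 48.1% with protein-coding genes only and 46.6% with lists widened by 1000 bp. The TAAT ratio was 1.51 at equal GC content, 1.89 against the centres of other iHoxc6 domains, 1.17 for members of 250 bp or more and 1.198 with lists widened by 1000 bp. The ATAAA ratio was 0.948 at equal GC content and 0.764 for members of 250 bp or more, and it turned to 1.43 against the centres of other iHoxc6 domains, whose median GC content was 53.5% against 46.0%. Median GC was 46.0% in the central 200 bp, 45.3% with lists widened by 1000 bp and 47.1% without the no Dox list. The share repeated in the genome was 1.62% at 95% identity. The share near another list was 31.5% within 0.5 kb, 68.9% within 5 kb and 32.7% for no Dox and day 2 only. Depth is unknown, so a domain missed by another list cannot be told apart from closed chromatin.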
